A study of Mus musculus with 12 samples.

Results

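The 10 genes described here encode signals that pass between neural cells and microglia, and they were chosen by name from 30165 genes of the oligodendrocyte precursor cell (OPC) table and 17918 genes of the neuron table. They are Sirpa and Cd47, Cd200 and Cd200r1, Cx3cl1, Csf1 and Il34, and Tgfb1, Tgfb2 and Tgfbr1. Both tables held all 10. Sirpa was picked for its higher level in OPCs of mice that lack Cav1.2 and Cav1.3 calcium channels in these cells (dKO) than in control mice (ctl), so that difference is given as a description without a test. The other 9 genes were added as the best known signals of the same kind.

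Microglia are held in a quiet state, and kept alive, by signals from the cells around them. CD47, CD200 and CX3CL1 on other cells bind the receptors SIRPα, CD200R1 and CX3CR1 on microglia, and the CD47 signal restrains engulfment. CSF1 and IL-34 both act through the receptor CSF1R, on which the survival of microglia depends, and TGFβ, sensed through TGFBR1 and TGFBR2, maintains their identity. SIRPα is also made by neurons and other neural cells, so its transcript is not a marker of microglia alone.

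RNA of OPCs and neurons from the mouse cortex was sequenced in bulk, in 12 libraries that form 4 groups of 3. Each library pooled 2 mice of one genotype, with 6 mice per group. The dKO mice carried the tamoxifen-inducible Cre NG2-CreERT2 with floxed Cav1.2 (exons 14 and 15 of Cacna1c) and floxed Cav1.3 (exon 2 of Cacna1d) alleles. NG2-CreERT2 is active in OPCs and can also act in pericytes, which share the NG2 promoter. The ctl mice are labelled WT, and whether they carried Cre or floxed alleles is not stated. Most mouse lines were kept on C57BL/6N, and tamoxifen was given at 100 mg/kg on postnatal days 7 and 8. Age at sorting is not given in the sources used here. The OPCs were bound to magnetic beads against CD140, NG2 and O4, while the neurons were those left after depletion with ACSA-2, CD31, CD11b and O4 beads. Nothing says whether the same mice gave OPCs and neurons. With 3 pools per group, p-values measure the spread between pools.

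The libraries held between 14935963 and 19812274 counts in OPCs and between 15052892 and 16344601 in neurons. In the OPC libraries, 14 OPC markers summed to 1711 to 3415 CPM, the count scaled to library size, and 11 markers of mature oligodendrocytes to 49619 to 86001 CPM, so RNA of the mature stage was abundant beside that of precursors. In the neuron libraries, 12 neuron markers summed to 649 to 1476 CPM and 10 endothelial markers to 12082 to 27098 CPM, which goes against the label. These libraries are called neuron libraries below, and the others OPCs or OPC libraries, for their label only. No marker of any list was at 0 in every library. The targeted genes were lower on average in dKO OPCs, with log2 fold changes of -0.44 for Cacna1c and -0.55 for Cacna1d (adjusted p = 0.349 and 0.531, edgeR's quasi-likelihood test). Fewer cells of a type and less RNA per cell cannot be told apart in such libraries.

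Markers of microglia and of other cell types moved with genotype in the OPC libraries. The 16 microglia markers summed to 253 to 322 CPM in ctl libraries and to 791, 349 and 993 CPM in dKO replicates 1, 2 and 3, so dKO replicate 2 was close to the ctl libraries. All 16 had an unadjusted p under 0.05 in the higher direction, against 6.27% of all genes. An adjusted p under 0.05 was reached by 0 of the 16 with edgeR (0.246 to 0.432), against 0.00576% of all genes, and by 11 with DESeq2, against 1.69%. Astrocyte markers summed to 1028 to 1836 CPM in ctl and to 1766, 5295 and 2739 CPM in dKO replicates 1, 2 and 3, and 7 of 8 had an unadjusted p under 0.05, all higher in dKO, with a median log2 fold change of 1.09 over the 8. Border macrophage markers summed to 22.2 to 23.8 CPM in ctl and to 31.6 to 46.9 CPM in dKO, so the groups did not overlap. Of 11 oligodendrocyte markers, 9 were lower in dKO, and the median log2 fold change over the 11 was -0.43. For 3 of them all dKO libraries were below all ctl libraries, against 9.55% of all genes, while the groups overlapped in the sum. In the neuron libraries the microglia sum ranged from 516 to 2293 CPM in ctl and from 561 to 1247 CPM in dKO, with the highest value in ctl replicate 1.

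Levels can be compared between genes only per length, which the deposited FPKM values allow. In ctl OPCs the growth factor gene Csf1 had the highest FPKM, with a median of 26.4 (range 24.6 to 30.5). Cd47 followed at 18.9 (17.4 to 20.8), then Cx3cl1 at 13.6, Tgfb2 at 11.8, Cd200 at 10.7, Sirpa at 8.36 (8.26 to 10.02), Tgfbr1 at 7.09, Il34 at 4.80 and Tgfb1 at 2.57. Cd200r1, the receptor for CD200, was last at 0.029 FPKM. In this order the ranges of 7 of 9 neighbouring pairs did not overlap, while Cx3cl1 and Tgfb2, and Tgfb2 and Cd200, could not be separated by their ranges.

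The order in ctl neuron libraries was led by the ligands Cd200, with a median FPKM of 237 (221 to 256), and Cd47, with 149 (131 to 165). Cx3cl1, the membrane-bound chemokine, had 37.5, Tgfb2 32.3, Tgfbr1 22.1, Csf1 12.04, Sirpa 10.7 (5.24 to 19.4), Il34 4.18, Tgfb1 0.58 and Cd200r1 0.51. Ranges did not overlap for 5 of 9 neighbouring pairs. The pairs that did overlap were Cx3cl1 with Tgfb2, Tgfbr1 with Csf1, Csf1 with Sirpa, and Tgfb1 with Cd200r1. The OPC and neuron tables were counted differently, so their FPKM values stand side by side without a test.

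**Figure D1:**
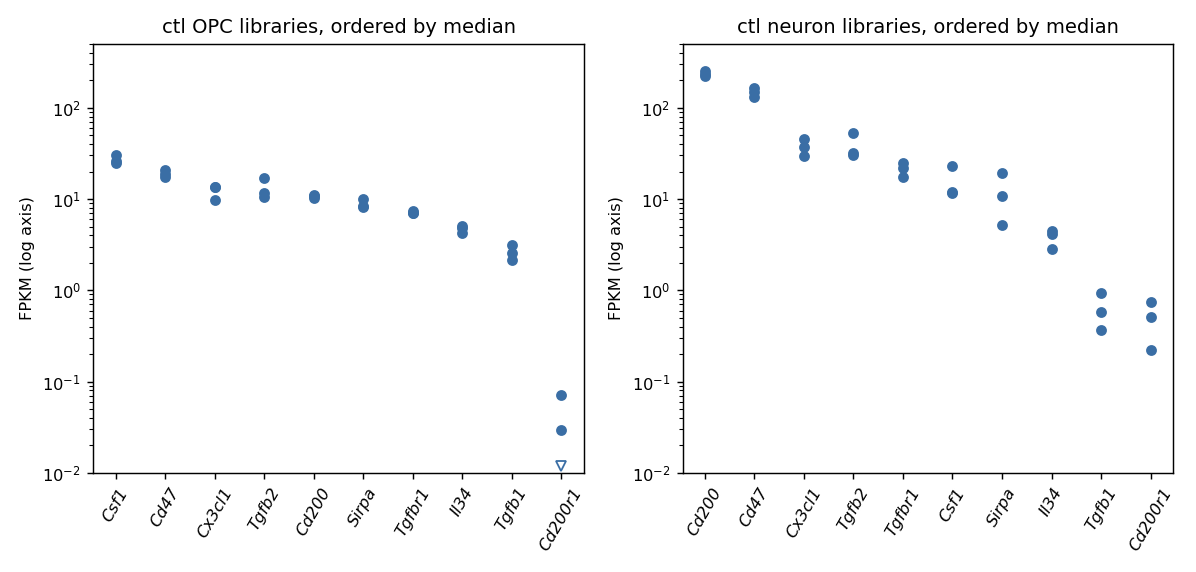
FPKM of the 10 genes in the 3 ctl libraries of each cell type, on a log axis, ordered by the median from left to right. Each point is a library, and the open triangle marks a value of 0 for Cd200r1. Csf1 leads in OPCs with a median of 26.4, and Cd200 leads in neuron libraries with a median of 237.

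Sirpa encodes an inhibitory receptor of the immunoglobulin superfamily that recruits the phosphatase SHP-1 (Ptpn6). The deposited OPC table places it on the plus strand of chromosome 2, from 129434755 to 129474148, and the submitters' processing notes name the build mm39. In ctl OPCs its level was 41.2, 40.9 and 49.5 CPM in replicates 1, 2 and 3. In dKO OPCs it was 71.6, 90.2 and 104 CPM. Every dKO library was above every ctl library, and the means were 43.9 ± 4.88 (SD, n = 3) and 88.8 ± 16.5 (SD, n = 3) CPM. The log2 fold change was 1.01 with an SE of 0.16, or 2.02-fold, on the contrast that served to pick the gene.

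The dKO OPC libraries had another order in Sirpa than in the summed microglia markers, which is given as a description of 3 libraries. Replicate 2, with a microglia sum of 349 CPM, had 90.2 CPM of Sirpa, while replicate 1, with 791 CPM, had 71.6. Per 1000 CPM of microglia markers, Sirpa stood at 154, 162 and 154 CPM in the ctl libraries and at 90.5, 259 and 105 CPM in dKO replicates 1, 2 and 3. Replicate 2 was also the highest in astrocyte markers, at 5295 CPM. The same held for neuron markers, at 291 CPM (161 to 203 in ctl), and OPC markers, at 3415 CPM (1806 to 2929 in ctl). The part of RNA from any of these cell types in the Sirpa values was not tested.

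In the neuron libraries Sirpa was at 66.5, 17.7 and 38.7 CPM in ctl replicates 1, 2 and 3 and at 25.6, 44.9 and 27.5 CPM in dKO. The groups overlapped, and the log2 fold change was -0.33 with an SE of 0.43 (unadjusted p = 0.466, adjusted p = 0.842). Over these 6 libraries the rank of Sirpa was that of the summed microglia markers in each library, from 516 CPM in ctl replicate 2 to 2293 CPM in ctl replicate 1, although the sort had used CD11b beads. Without ctl replicate 1 the log2 fold change was 0.21. The part of microglial RNA in the neuron values of Sirpa was not tested.

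Genes near in sequence to Sirpa were hardly counted. In OPCs Sirpb1a had 0 CPM in 5 libraries and 0.10 CPM in the other, and in neuron libraries Sirpb1a, Sirpb1b and Sirpb1c stayed at or below 0.56 CPM. Sirpb1b and Sirpb1c had no entry in the OPC table. Reads that such copies share could have been split by the counting, which leaves an uncertainty on Sirpa that was not measured.

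Cd47 encodes the ligand of SIRPα, a membrane protein present on most cells, and it lies on chromosome 16 from 49620896 to 49735373 in the same table. In OPCs its level was 111, 131 and 119 CPM in ctl and 119, 115 and 107 CPM in dKO replicates 1, 2 and 3. The groups overlapped, and the log2 fold change was -0.08 with an SE of 0.11 (unadjusted p = 0.485). It was -0.017 without ctl replicate 2 and -0.13 without ctl replicate 1. No difference beyond the spread between libraries was therefore seen for the ligand.

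In neuron libraries Cd47 was at 316, 258 and 304 CPM in ctl and at 218, 237 and 253 CPM in dKO. The groups did not overlap, the nearest libraries being 253 CPM in dKO and 258 CPM in ctl. Its log2 fold change was -0.31 with an SE of 0.14 (unadjusted p = 0.0601, adjusted p = 0.558), and DESeq2 gave an unadjusted p of 0.0354. Endothelial markers, which summed to 23333 to 27098 CPM in ctl and to 12082 to 20932 CPM in dKO neuron libraries, were lower in the same libraries, and their part in this result was not tested.

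CD200 is a membrane glycoprotein whose binding to CD200R1 dampens microglia. In OPCs Cd200 was at 36.1, 33.9 and 37.1 CPM in ctl and at 49.9, 38.5 and 48.6 CPM in dKO replicates 1, 2 and 3. All dKO libraries were above all ctl libraries, with replicate 2 only just so. This gave a log2 fold change of 0.35 with an SE of 0.13 (unadjusted p = 0.0234, adjusted p = 0.368). A microglia covariate, made from the 16 markers, gave 0.06 (unadjusted p = 0.714). The summed markers did not overlap between genotypes in OPCs (253 to 322 CPM in ctl, 349 to 993 CPM in dKO). Such a fit therefore cannot tell genotype from microglia level. Leaving out any one library but dKO replicate 2 gave unadjusted p-values from 0.0513 to 0.0840.

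Neuron libraries showed the other direction for Cd200. It was at 485, 536 and 479 CPM in ctl and at 248, 391 and 460.0 CPM in dKO, and the groups did not overlap. Here the log2 fold change was -0.45 with an SE of 0.22 (unadjusted p = 0.0768, adjusted p = 0.582). Without dKO replicate 1, the library lowest in endothelial markers as well (12082 CPM), it was -0.23 (unadjusted p = 0.105), and without dKO replicate 3 it was -0.65 (unadjusted p = 0.0257).

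The receptor gene Cd200r1 was barely detected in OPC libraries. Its raw counts were 2, 0 and 4 in ctl and 4, 2 and 13 in dKO, and a count of 0 allows up to 3 counts at this depth. It did not reach the mean count of 10 that the test required, and it is the single gene of the 10 left untested there. In neuron libraries it was at 1.24, 0.37 and 0.89 CPM in ctl and at 0.82, 0.85 and 0.59 CPM in dKO, with overlapping groups and a log2 fold change of -0.14 (SE 0.64, unadjusted p = 0.827).

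Cx3cl1, or fractalkine, is the ligand of CX3CR1, a receptor that in the brain is found chiefly on microglia. OPC libraries had 54.8, 38.2 and 53.7 CPM in ctl and 56.4, 54.6 and 73.1 CPM in dKO. Its log2 fold change was 0.33 with an SE of 0.17 (unadjusted p = 0.0928, adjusted p = 0.505). Both groups overlapped, and dKO replicate 3 was the highest. The log2 fold change was 0.17 without dKO replicate 3, 0.18 without ctl replicate 2 and 0.03 with a microglia covariate. In neuron libraries Cx3cl1 was at 132, 110.4 and 91.1 CPM in ctl and at 109, 87.2 and 93.2 CPM in dKO, again with overlap (log2 fold change -0.20, SE 0.17, unadjusted p = 0.268), and without ctl replicate 1 the log2 fold change was -0.06. It was -0.13 without dKO replicate 2 and -0.33 without ctl replicate 3.

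Csf1 and Il34 encode the ligands of CSF1R. Csf1 in OPCs was at 132, 161 and 140.1 CPM in ctl and at 131, 126 and 132 CPM in dKO, with overlap and a log2 fold change of -0.16 (SE 0.11, unadjusted p = 0.198), or -0.07 without ctl replicate 2. The overlap came from ctl replicate 1 and dKO replicate 3, which were nearly equal. Il34 was at 9.56, 8.38 and 10.04 CPM in ctl and at 12.97, 7.27 and 12.1 CPM in dKO OPCs (log2 fold change 0.20, SE 0.24, unadjusted p = 0.415). Here dKO replicate 2 was the lowest of all 6 libraries, and without it the log2 fold change was 0.42 (unadjusted p = 0.0499), while without dKO replicate 1 it was 0.047 and without dKO replicate 3 it was 0.11 (unadjusted p = 0.860 and 0.707).

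The lowest unadjusted p among the 10 genes in neuron libraries belonged to Csf1. Its level was 72.1, 39.4 and 37.6 CPM in ctl and 18.3, 30.4 and 26.6 CPM in dKO. All dKO libraries were below all ctl libraries, and ctl replicate 1 stood high. The fit gave a log2 fold change of -0.99 with an SE of 0.29 (unadjusted p = 0.00883, adjusted p = 0.521). Without ctl replicate 1 it was -0.62 (unadjusted p = 0.0331). That library had the highest sum of microglia markers and also of oligodendrocyte markers (4155 CPM), astrocyte markers (1113 CPM) and border macrophage markers (27.4 CPM), whose part in the value was not tested. Il34 in the same libraries was at 6.96, 6.79 and 4.67 CPM in ctl and at 7.22, 6.003 and 9.38 CPM in dKO, the single log2 fold change above 0 in neuron libraries (0.29, SE 0.31, unadjusted p = 0.373). It was 0.13 without ctl replicate 3 and 0.11 without dKO replicate 3.

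Tgfb1 and Tgfb2 encode TGFβ ligands, and Tgfbr1 the type I receptor kinase. In OPCs Tgfb1 was at 13.2, 10.8 and 15.9 CPM in ctl and at 25.0, 14.3 and 28.5 CPM in dKO replicates 1, 2 and 3. Replicate 2 lay within the ctl range, so the groups overlapped. A log2 fold change of 0.76 resulted, with an SE of 0.26 (unadjusted p = 0.0180, adjusted p = 0.349), and the unadjusted p was 0.0563 to 0.0777 without ctl replicate 2, dKO replicate 1 or dKO replicate 3.

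Tgfbr1 had the same library pattern in OPCs. It was at 48.6, 46.2 and 46.6 CPM in ctl and at 74.5, 48.5 and 109 CPM in dKO, with replicate 2 at the ctl level. Its log2 fold change was 0.71 with an SE of 0.25 (unadjusted p = 0.0196, adjusted p = 0.355). The unadjusted p was 0.0517 without ctl replicate 2, 0.0570 without ctl replicate 3 and 0.0735 without dKO replicate 3, where the log2 fold change was 0.38. For both genes the dKO libraries with raised values were those with microglia sums of 791 and 993 CPM. The same libraries were highest in 10 endothelial markers, which summed to 1424 to 2070 CPM in ctl and to 2531, 1175 and 3271 CPM in dKO replicates 1, 2 and 3, and in 6 mural markers, with 888 to 1269 CPM in ctl and 1493, 758 and 1549 CPM in dKO. The part of these cell types in the values of Tgfb1 and Tgfbr1 was not tested. A microglia covariate gave log2 fold changes of -0.08 for Tgfb1 (unadjusted p = 0.733) and -0.12 for Tgfbr1 (unadjusted p = 0.565). The microglia sums did not overlap between genotypes in OPCs, so this fit cannot tell genotype from microglia level.

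Tgfb2 did not share this pattern. In OPCs it was at 99.6, 61.0 and 68.5 CPM in ctl and at 60.2, 74.3 and 87.5 CPM in dKO, with overlap and a log2 fold change of -0.05 (SE 0.20, unadjusted p = 0.822). In neuron libraries Tgfb2 was at 262, 162 and 157 CPM in ctl and at 144, 122 and 132 CPM in dKO. All dKO libraries were below all ctl libraries, and ctl replicate 1 was the highest. The log2 fold change there was -0.55 with an SE of 0.21 (unadjusted p = 0.0309, adjusted p = 0.521), and without ctl replicate 1 it was -0.27 (unadjusted p = 0.126). Without dKO replicate 2 or 3 the unadjusted p was 0.0893 or 0.0743. A microglia covariate gave -0.41 (unadjusted p = 0.108).

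No difference beyond the spread was seen for the remaining TGFβ genes in neuron libraries. Tgfb1 was at 1.76, 1.12 and 0.75 CPM in ctl and at 1.19, 1.39 and 0.66 CPM in dKO (log2 fold change -0.16, SE 0.59). Tgfbr1 was at 121, 98.3 and 143 CPM in ctl and at 70.4, 152 and 130.1 CPM in dKO (log2 fold change -0.04, SE 0.27). Groups overlapped for both, and their unadjusted p-values were 0.790 for Tgfb1 and 0.895 for Tgfbr1.

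**Figure D2:**
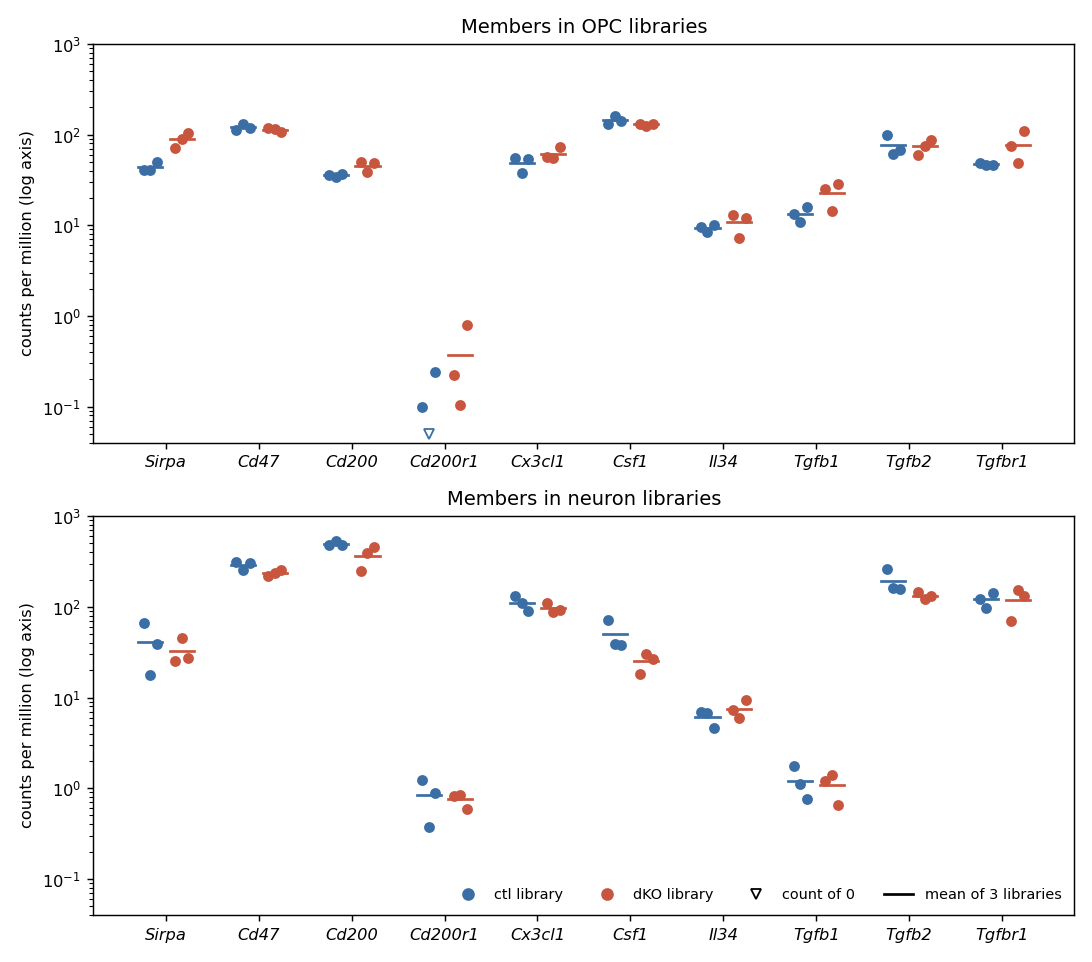
Level of the 10 genes in CPM in each library, on a log axis, for OPCs above and neuron libraries below. Points are libraries (blue ctl, red dKO), lines are means of 3 libraries and the open triangle is a count of 0. Sirpa in OPCs lies at 40.9 to 49.5 in ctl and at 71.6 to 104 in dKO, and Csf1 in neuron libraries at 37.6 to 72.1 in ctl and at 18.3 to 30.4 in dKO.

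Counted together, 8 of the 9 genes other than Sirpa could be tested in OPCs. Of these, 3 had an unadjusted p under 0.05 (Cd200, Tgfb1 and Tgfbr1), all higher in dKO, against 6.27% higher and 5.27% lower among the 17364 genes tested. An adjusted p under 0.05 was reached by 0 of the 8 with edgeR, against 0.00576% of all genes, and by 0 with DESeq2, against 1.69%. Log2 fold changes were above 0 for 5 of the 8 and their median was 0.26, beside 50.8% and a median of 0.01 over all genes tested. One gene, Cd200, had all dKO libraries above all ctl libraries, against 7.41% of all genes, and 0 had all below, against 9.55%. The count of 3 was 0 without ctl replicate 2, without dKO replicate 3 or with a microglia covariate, and 1 without ctl replicate 3 or dKO replicate 1. Without dKO replicate 2 it was 4, and 2 of these (Tgfb1 and Tgfbr1) then had an adjusted p under 0.05, against 1.15% of all genes.

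In neuron libraries all 10 genes were tested, and 9 had log2 fold changes below 0, beside 48.9% of all genes. The median was -0.26, against 0.01 over all 14352 genes. An unadjusted p under 0.05 was found for 2 (Csf1 and Tgfb2), both lower in dKO, against 4.96% higher and 4.04% lower among all genes, and the count was 1 without ctl replicate 1, without dKO replicate 2 or with a microglia covariate. An adjusted p under 0.05 was reached by 0 of the 10 with edgeR, against 0% of all genes, and by 0 with DESeq2, against 0.613%. For 4 of the 10 (Cd47, Cd200, Csf1 and Tgfb2) all dKO libraries were below all ctl libraries, against 7.82% of all genes, and for 0 all were above, against 7.50%. All 10 endothelial markers had log2 fold changes below 0 as well, and for 8 of the 10 the groups did not overlap. Below 0 too were 16 of 16 microglia markers (median -0.73) and 11 of 11 oligodendrocyte markers (median -0.91). The same held for 7 of 8 astrocyte, 6 of 7 border macrophage and 11 of 14 OPC markers. Mural markers were split 3 and 3, while 11 of 12 neuron markers were above 0 (median 0.54). The part of these cell types in the counts was not tested.

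**Figure D3:**
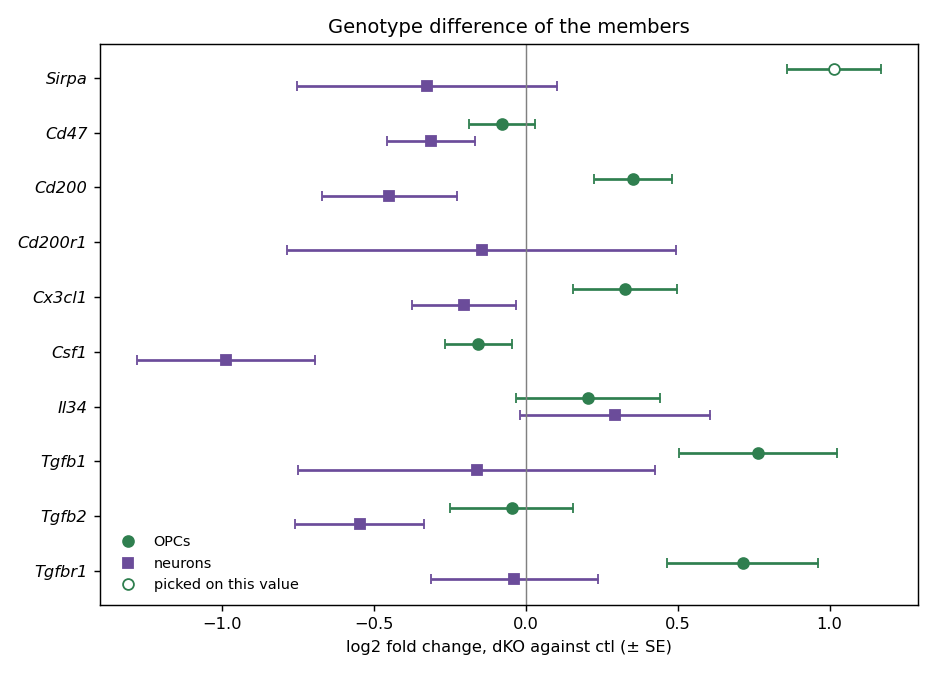
Log2 fold change of dKO against ctl for each gene, with bars of 1 SE, in OPCs (green circles) and neuron libraries (purple squares). The open circle is Sirpa in OPCs (1.01), picked on this value, and Cd200r1 has no OPC value because it was not tested. In neuron libraries 9 of 10 values lie below 0, and Csf1 is lowest at -0.99.

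Partners of these signals were examined through 50 further genes of the 5 pathways, chosen by hand. In OPCs 42 were tested and 9 had an unadjusted p under 0.05, all of them higher in dKO, against 6.27% higher and 5.27% lower among all genes tested. Log2 fold changes were above 0 for 34 of the 42, beside 50.8% of all genes, and their median was 0.21. The smallest p-values were those of Smad6, an inhibitor of BMP and TGFβ signalling (log2 fold change 1.08, SE 0.23, unadjusted p = 0.00134), Csf1r (1.41, SE 0.37, unadjusted p = 0.00501) and Tgfb3, the third TGFβ ligand (0.42, SE 0.11, unadjusted p = 0.00526). Adjusted p-values were 0.246, 0.292 and 0.296. All dKO libraries were above all ctl libraries for each of the 3, which were picked for their small p. This held for 7 of the 42, against 7.41% of all genes, and all were below for 0, against 9.55%. Smad6 was at 16.1, 10.3 and 15.2 CPM in ctl and at 30.8, 21.5 and 35.6 CPM in dKO.

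Among the partners that microglia are known to express, Csf1r, Cx3cr1, Nrros and Ptpn6 had their lowest dKO value in replicate 2, as the microglia markers did. Csf1r was at 67.6, 65.7 and 75.9 CPM in ctl and at 200.0, 78.6 and 277 CPM in dKO OPC replicates 1, 2 and 3. Cx3cr1 was at 31.5, 27.5 and 26.9 CPM in ctl and at 85.7, 26.6 and 129 CPM in dKO (log2 fold change 1.49, SE 0.46, unadjusted p = 0.0107). In replicate 2 both were at or near the ctl level. Nrros, which anchors latent TGFβ on microglia, had a log2 fold change of 1.40 (unadjusted p = 0.00646), and Ptpn6 one of 1.06 (unadjusted p = 0.0189).

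Ptprz1, a receptor for IL-34 that is also an OPC marker, was at 110.3, 221 and 191 CPM in ctl and at 193, 541 and 254 CPM in dKO, so replicate 2 was far the highest (log2 fold change 0.92, SE 0.39, unadjusted p = 0.0440). Tgfb3 was at 29.8, 28.5 and 31.2 CPM in ctl and at 43.5, 40.1 and 36.5 CPM in dKO, without the pattern of the microglia markers. Thbs1, a second ligand of CD47, had a log2 fold change of 0.48 (SE 0.24, unadjusted p = 0.0809), and Tgfbr2, the type II receptor, one of 0.32 (SE 0.27, unadjusted p = 0.266). Tgfbr2 was at 105, 71.2 and 105 CPM in ctl and at 117, 73.3 and 161 CPM in dKO, so replicate 2 was within the ctl range and replicate 3 the highest. The remaining genes of the 9 were Csf3r and Fyb, named here after their values had been seen. Csf3r, the receptor of G-CSF, was at 4.10, 3.75 and 4.90 CPM in ctl and at 12.4, 4.36 and 22.8 CPM in dKO (log2 fold change 1.63, SE 0.51, unadjusted p = 0.0114), so its replicate 2 was within the ctl range. Fyb, an adaptor of immune cells, was at 4.25, 3.61 and 5.02 CPM in ctl and at 5.59, 6.39 and 10.6 CPM in dKO, with replicate 2 above replicate 1 and above every ctl library.

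**Figure D4:**
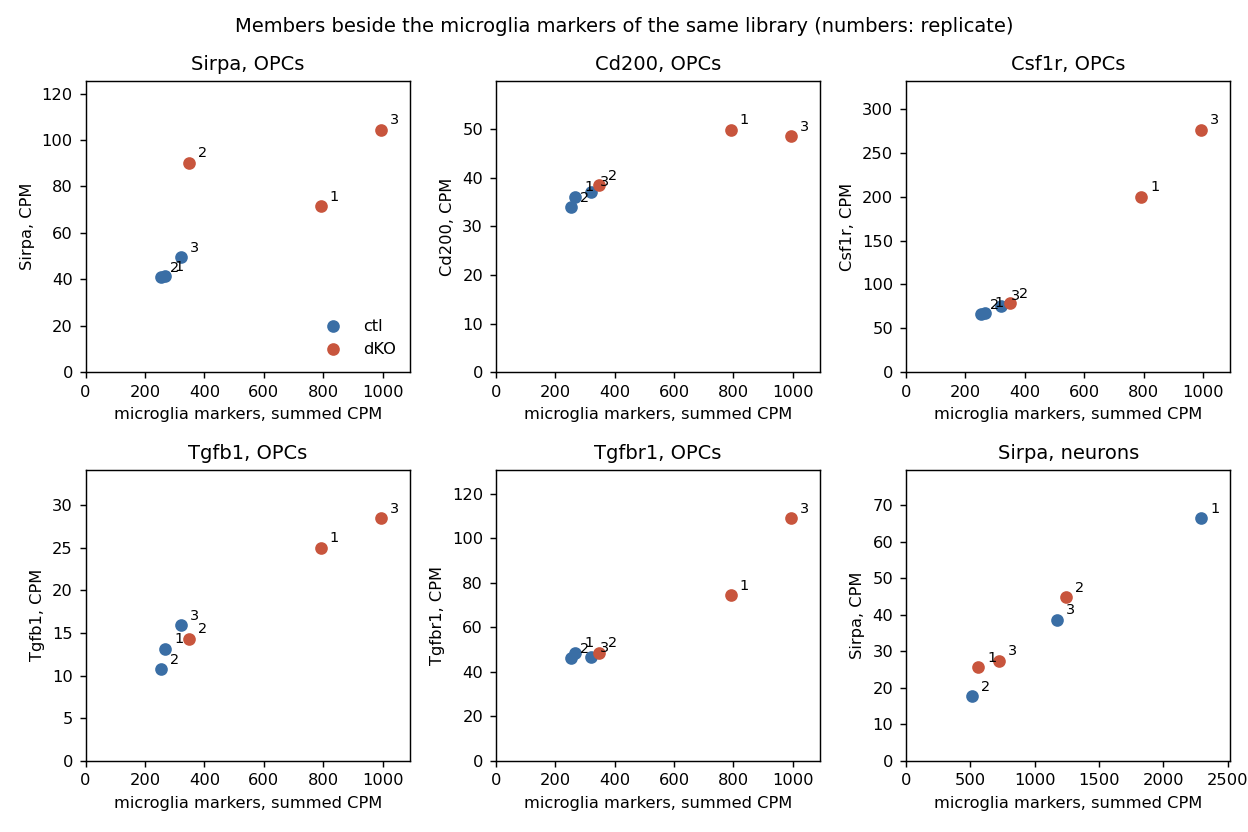
Level of a gene (vertical, CPM) against the summed CPM of 16 microglia markers (horizontal) in the same library, for Sirpa, Cd200, Csf1r, Tgfb1 and Tgfbr1 in OPCs and Sirpa in neuron libraries. Points are libraries with their replicate number (blue ctl, red dKO). In OPC dKO replicate 2, at 349 CPM of microglia markers, Sirpa is at 90.2 CPM while Tgfb1 and Tgfbr1 are at 14.3 and 48.5 CPM, within or beside the ctl points.

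In neuron libraries 44 of the 50 pathway genes were tested, 4 had an unadjusted p under 0.05 (2 higher, 2 lower), near the 4.96% higher and 4.04% lower among all genes. The median log2 fold change was -0.16, with 29 of 44 below 0, beside 48.9% of all genes. The 3 genes with the smallest p are described for their values. Bambi, a decoy receptor of the TGFβ family, was at 42.7, 35.9 and 40.8 CPM in ctl and at 28.0, 32.5 and 26.7 CPM in dKO (log2 fold change -0.45, SE 0.15, unadjusted p = 0.0170). Smad4, the common partner of the receptor-regulated SMADs, was at 56.9, 105 and 126 CPM in ctl and at 143, 189 and 169 CPM in dKO (0.80, SE 0.27, unadjusted p = 0.0178). Cd200r4, a relative of Cd200r1, was at 2.28, 1.06 and 3.43 CPM in ctl and at 1.00, 0.61 and 0.46 CPM in dKO (-1.69, SE 0.63, unadjusted p = 0.0260). Adjusted p was 0.521 for each of these 3, and the groups overlapped for none of them. Of the 44 genes, 4 had all dKO libraries above all ctl libraries, against 7.50% of all genes. For 2 all were below, against 7.82%. Cx3cr1 and Csf1r ranged from 30.5 to 170.4 and from 51.5 to 205 CPM in ctl, overlapping with dKO, and both were highest in ctl replicate 1.

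The estimated counts of the neuron table are split by RefSeq transcript, and 49 transcripts belonged to the 10 genes. Among the 8 genes with several transcripts, 18 transcripts held at least 10% of their gene on average in ctl, and for 2 of these the dKO and ctl shares did not overlap, against 8.67% of all such transcripts in the table. Both belonged to Cd47. NM_001368415 held 30.4%, 24.4% and 27.9% of the Cd47 count in ctl and 3.84%, 20.3% and 19.5% in dKO. NM_001368418 held 7.98%, 16.3% and 10.9% in ctl and 34.3%, 20.5% and 18.8% in dKO. These 2 were singled out for shares that do not overlap, and 2 of 18 is near the share over the table, so they are a description. The main transcript NM_010581 made up 56.7% ± 0.52 (SD, n = 3) of the count in ctl, while in dKO its share was 55.9% ± 1.43 (SD, n = 3).

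Over the 6 OPC libraries, the protein-coding genes most like Sirpa by Pearson's r of log2 CPM were Kcnd1 (0.994), a voltage-gated potassium channel, Lmntd1 (0.993), Scara3 (0.993), Grm4 (0.993), a metabotropic glutamate receptor, and Plcb1 (0.991), a phospholipase C. Of 14462 genes compared, 224 had an r above 0.9. The libraries include both genotypes, so a gene that differs between them as Sirpa does scores high, and the values are a description. Their log2 fold changes were 0.70 for Kcnd1, 1.07 for Lmntd1, 1.31 for Scara3, 1.08 for Grm4 and 0.61 for Plcb1. Among the other listed genes, r was 0.75 for Cd200, 0.74 for Tgfb1, 0.73 for Cx3cl1, 0.72 for Tgfbr1, 0.24 for Il34, 0.09 for Tgfb2, -0.56 for Cd47 and -0.65 for Csf1. The nearest of them, Cd200, ranked 1142 in likeness to Sirpa.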

How the data were processed

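The authors deposited whole read counts per Ensembl gene for OPCs and estimated counts per RefSeq transcript for neurons. Their methods name HISAT2 and featureCounts, with counts per gene, for all samples. How the estimates per transcript were made is not stated. Both tables hold FPKM values, deposited by the authors, and the authors' own fold changes and p-values, which were not used. Methods name GRCm38 and the processing notes mm39, and 2.09% of 28720 matched genes have the GRCm38 start and end, so coordinates are those of the table. Library kit: TruSeq, without strand.

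Estimated counts were summed per gene and rounded, and 17794 of 17918 identifiers matched a symbol through RefSeq. CPM values were computed from the deposited counts after TMM scaling. In each cell type, dKO was set against ctl by edgeR's quasi-likelihood test (version 4.0.16 in R 4.3.3) on genes whose normalized count averaged 10 or more, with Benjamini-Hochberg adjustment over all genes tested and a threshold of 0.05. The SE was derived from the log2 fold change and its F statistic. DESeq2 1.42.0, RLE scaling, no filter, a replicate block, a microglia covariate, transcripts with NM accessions only and each library left out were alternatives. The test was checked on simulated data. The genes, the pathway and marker lists and the tests were chosen with earlier results of these data known. By rule the text names the 10 genes, 8 partners (Cx3cr1, Csf1r, Tgfbr2, Tgfb3, Thbs1, Nrros, Ptpn6, Ptprz1), the 3 pathway genes with the smallest p per cell type, the related copies and the 5 genes closest to Sirpa.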

Additional observations from a re-analysis of the deposited data

Results flagged for a closer look

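The log2 fold changes of Cd200 and Cx3cl1 had opposite signs in OPCs and neuron libraries, with no adjusted p under 0.05 for either gene. For Cd200, the log2 fold change was 0.35 in OPCs and -0.45 in neuron libraries, a gap of 0.80. For Cx3cl1 it was 0.33 in OPCs and -0.20 in neuron libraries, a gap of 0.53. In OPCs every dKO library of these genes was above the ctl mean, and in neuron libraries every dKO library was below it. With a microglia covariate the OPC values were 0.06 for Cd200 and 0.03 for Cx3cl1, and without ctl replicate 1 the neuron value of Cx3cl1 was -0.06. Sirpa, Tgfb1 and Tgfbr1 also had opposite signs (1.01 and -0.33, 0.76 and -0.16, 0.71 and -0.04 in OPCs and neuron libraries), but their dKO neuron libraries lay on both sides of the ctl mean. The difference between cell types was not tested, because the tables were counted in different ways.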

How the results depend on the processing

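Of 208 recomputed log2 fold changes with a p, 170 kept their direction and their side of an unadjusted p of 0.05, 16 lost that call, 6 gained one and 16 turned direction. Of the counts, 8 moved by more than 1.5 times. Sirpa in OPCs is not among them, because its choice on this contrast fixed its direction. Its log2 fold changes of 0.87 to 1.15 with each library left out are a description. So is its value of 0.92 (SE 0.22) with the microglia covariate. Depth limits Cd200r1 in OPCs and Tgfb1 and Cd200r1 in neuron libraries.

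With the microglia covariate the count of genes at an unadjusted p under 0.05 was 0 in OPCs and 1 in neuron libraries. The microglia sums did not overlap between genotypes in OPCs, so there the fit cannot tell genotype from microglia level. In OPCs this covariate turned the direction of Il34 (-0.45), Tgfb1 (-0.075) and Tgfbr1 (-0.12), and in neuron libraries that of Sirpa (0.29), Cd200r1 (0.34), Tgfb1 (0.0083) and Tgfbr1 (0.10). Tgfb1 in neuron libraries also turned when only transcripts with NM accessions, not predicted XM models, were summed (0.25). Fits that left out 1 library each gave counts from 0 to 4 for OPCs, and between 1 and 2 for neuron libraries. Their log2 fold changes ran from -0.20 to 0.19 for Tgfb2 in OPCs, and in neuron libraries from -0.69 to 0.21 for Sirpa, from -0.50 to 0.25 for Cd200r1, from -0.41 to 0.20 for Tgfb1 and from -0.26 to 0.23 for Tgfbr1. The cause was not tested. CPM, which is not per length, gave another order of the genes than FPKM: Tgfb2 stood above Cx3cl1 without overlap in OPCs, and Cd47 and Tgfb2 overlapped in neuron libraries.

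The replicate block gave counts of 4 in OPCs and 3 in neuron libraries, as Cx3cl1 in OPCs (unadjusted p = 0.0406) and Cd200 in neuron libraries (0.0481) came under 0.05. The numbers are shared labels only: deviations of same-numbered libraries correlated at -0.11, 0.15 and 0.12 in OPCs and at 0.17, -0.07 and -0.07 in neuron libraries, and not every library was closest to its own number.

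Over all genes, the count at an adjusted p under 0.05 in OPCs was 1 in the test reported, 293 with DESeq2, 87 without a filter, 27 with the replicate block, 11 with the microglia covariate, 199 without dKO replicate 2 and 2 without dKO replicate 3. In neuron libraries it was 0, and 88 with DESeq2. At an unadjusted p under 0.05 it was 2003 in OPCs, and 1106 without ctl replicate 2. In neuron libraries it was 1292, 602 with the covariate and 780 without ctl replicate 1.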

Other observations

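A list of 19 other signals exchanged with microglia, which covers phosphatidylserine sensing, chemokines and microglial receptors, was also counted. In OPCs 18 were tested, 16 had log2 fold changes above 0 and 8 had an unadjusted p under 0.05, 7 higher and 1 lower in dKO, against 6.27% higher and 5.27% lower among all genes tested, 50.8% of which had log2 fold changes above 0. An adjusted p under 0.05 was reached by 0 of the 18 with edgeR, against 0.00576% of all genes, and by 5 with DESeq2 (Mertk, Mfge8, Siglech, Trem2 and Tyrobp), against 1.69%. All dKO libraries were above all ctl libraries for 8 of the 18, against 7.41% of all genes, and below for 1, against 9.55%, while the groups overlapped for 9. The 8 with an unadjusted p under 0.05 are named here after their values had been seen. Mfge8, a bridge between phosphatidylserine and integrins, was at 173, 148 and 161 CPM in ctl and at 221, 243 and 246 CPM in dKO OPCs (log2 fold change 0.56, unadjusted p = 0.00103). Of the receptors that bind Gas6 and Pros1, Mertk had a log2 fold change of 0.95 (unadjusted p = 0.00136) and Axl one of 0.62 (unadjusted p = 0.00853), while Tyro3 was lower in dKO at -0.41 (unadjusted p = 0.0468). These 4 genes are among those without overlap. The 11 oligodendrocyte markers had a median log2 fold change of -0.43 in the same libraries, and their part in Tyro3 was not tested. In dKO replicate 2 Mertk was at 48.6 CPM, against at most 35.2 CPM in ctl, and that library had 349 CPM of microglia markers (at most 322 in ctl) and 5295 CPM of astrocyte markers (at most 1836 in ctl), whose part was not tested. Tyrobp, Siglech and Trem2, genes of microglia, had log2 fold changes of 1.33, 1.55 and 1.24, each with its lowest dKO value in replicate 2. Ccl2 was at 1.75 to 2.18 CPM in ctl and at 3.08 to 5.94 CPM in dKO.

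In neuron libraries 1 of 18 of these signals had an unadjusted p under 0.05, Cxcl10, with a log2 fold change of -2.91 (unadjusted p = 0.0479), against 4.96% higher and 4.04% lower among all genes. Its mean was 11.97 ± 17.3 (SD, n = 3) CPM in ctl and 1.58 ± 1.51 (SD, n = 3) CPM in dKO, and the ctl mean rests on ctl replicate 1 at 31.9 CPM.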
